A study of Mus musculus with 8 samples.

Results

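In sorted CD4+ CD25+ T cells, 7 genes are described here: the ubiquitin ligase genes Rnf128, Cblb and Itch, the neighbouring membrane protein genes Tmem176a and Tmem176b, the epoxide hydrolase gene Ephx1, and AA467197. They were found by name, all 7 members among 45232 rows of the deposited table, and all 7 passed the filter on low values that left 13376 genes to be tested. Rnf128, Tmem176b, Ephx1 and AA467197 (4 genes) were picked because their levels differed strongly between adipose tissue and spleen in these same libraries. For these 4 genes the tissue difference is therefore given as a description, without a test. The other 3 genes were added for their relation to them: Tmem176a as the paralog of Tmem176b, and Cblb and Itch as further ligases linked to T cell unresponsiveness.

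RNA was measured in cells carrying CD4 and CD25, a sort that enriches regulatory T cells (Tregs), sorted from visceral adipose tissue and from spleen of C57BL/6 mice. Groups are named by genotype and tissue, as in WT adipose. Each tissue was taken from wild-type mice (WT) and from mice whose genotype is labelled Id2 CKO, called Id2-deficient in the title of the series and KO here. Each of the 4 groups held 2 libraries, from experiments numbered 2 and 3, with a minimum of 500 sorted cells per library. The sources used here do not give age, sex, the cell type in which Id2 was removed, or whether separate mice gave the libraries. The p-values therefore measure only the spread between libraries, some of which may be technical.

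Rnf128 encodes GRAIL, a membrane-anchored ubiquitin ligase of the RING type that is induced in unresponsive (anergic) CD4 T cells and is also known from Tregs. Cbl-b, another RING ligase, dampens signals from the T cell receptor and CD28, and Itch is a ligase of the HECT type that works with Ndfip adaptor proteins. The Tmem176 proteins are multi-pass membrane proteins related to the MS4A family and are known from dendritic cells and from some lymphocytes. Ephx1 is the microsomal epoxide hydrolase, which detoxifies reactive epoxides. AA467197 encodes NMES1, a small mitochondrial protein related to the complex IV subunit Ndufa4, and its transcript carries the hairpin of Mir147.

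Levels are in TPM (a share of all transcripts, scaled to gene length), so the depth behind them is unknown, and a gene at 0 is called listed at 0. Differences were tested with limma on log2(TPM + 1), with p-values adjusted by the Benjamini-Hochberg method over the 13376 genes and a threshold of 0.05. The targeted gene Id2 was at 2249 and 3679 TPM in WT adipose, and KO adipose had 1499 and 1298 TPM. It was at 274 and 346 TPM in WT spleen, and KO spleen had 72.1 and 265 TPM. Both KO libraries of each tissue were thus below both WT libraries, without passing the test (limma adjusted p = 0.751 in adipose tissue and 1 in spleen). Between the tissues Id2 was higher in adipose tissue by 3.22 (SE 0.57, limma adjusted p = 0.0835) in WT and by 3.32 (SE 0.57, limma adjusted p = 0.0424) in KO. The KO call of Id2 was lost under most of the alternative settings tried, over which the difference ran from 2.29 to 4.25. The gate was checked against marker lists: the T cell core list (12 genes) summed to at least 3628.5 TPM (KO adipose 3) and at most 9845 TPM (KO spleen 2). The Treg factor Foxp3 stood at only 7.4 TPM in KO adipose 2 and at 8.27 in KO spleen 2, against 93.5 to 266 TPM elsewhere. The Treg list as a whole (9 genes, all at 1 TPM or more in each library) did not follow Foxp3, and summed to 3294 TPM in the first of these libraries and 4424 TPM in the second. Its sums were 1818 TPM in KO adipose 3, 3542 and 2918 TPM in WT adipose, and 4260 to 5306 TPM in the other spleen libraries. The CD8 T and NK cell list (7 genes) summed to 7.6 to 100.9 TPM. KO adipose 3 stood apart with 11277 TPM in the macrophage and monocyte list (13 genes, all above 0), 14386 TPM in the adipocyte list (2124 TPM in WT adipose 3, at most 54.2 TPM elsewhere) and 3741 TPM in the fibroblast and mesothelium list. In KO adipose 2 the fibroblast and mesothelium list summed to 747 TPM, against at most 4.8 TPM in the WT adipose and the spleen libraries. In a mixture of cells, fewer cells of a type and less RNA per cell cannot be told apart.

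**Figure D1:**
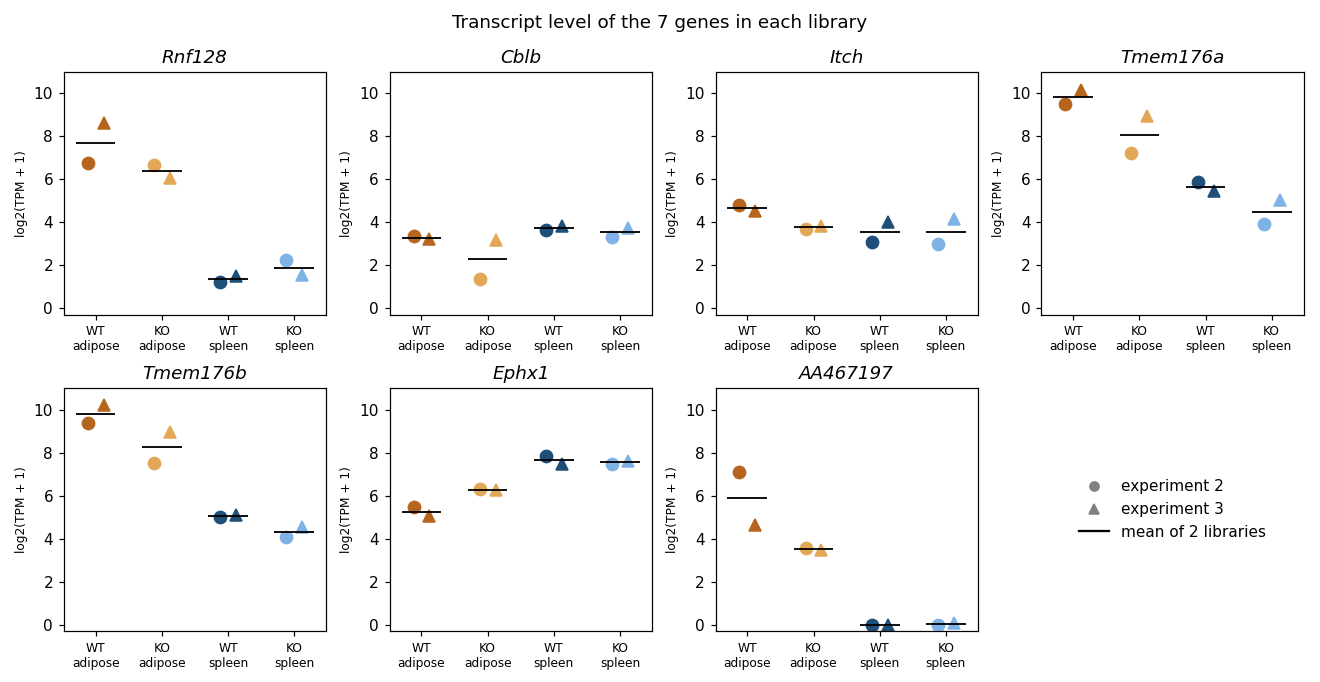
Level of each gene as log2(TPM + 1), 1 point per library, with circles for experiment 2, triangles for experiment 3 and a line at the mean of the 2 libraries of a group. Rnf128, the Tmem176 pair and AA467197 lie higher in the 4 adipose libraries than in the 4 spleen libraries, and Ephx1 lies lower.

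Rnf128 was at 106 and 395 TPM in WT adipose, 102 and 66.7 TPM in KO adipose, 1.35 and 1.83 TPM in WT spleen, and 3.69 and 1.96 TPM in KO spleen. All 4 adipose libraries were above all 4 spleen libraries. In both genotypes the adipose libraries were above the spleen libraries for 14.1% of the tested genes. The mean in adipose tissue was 157 times that in spleen in WT (251 ± 205 TPM against 1.59 ± 0.338 TPM, SD, n = 2) and 29.9 times in KO (84.5 ± 25.1 TPM against 2.83 ± 1.22 TPM, SD, n = 2). On the log2(TPM + 1) scale the differences were 6.32 (SE 0.63) in WT and 4.49 (SE 0.63) in KO. By the first value Rnf128 ranked 3rd from the top among the 13376 tested genes, and by the second 99th. The ranks also depend on the other genes. Dcn and Igfbp6, of the fibroblast and mesothelium list, differed by 9.95 and 8.81 in KO but by 1.15 and 0.20 in WT. The fall in rank is thus not a measure of Rnf128 alone. Within experiments the tissue difference of Rnf128 in KO was 4.46 in experiment 2 and 4.51 in experiment 3. In WT it was 5.50 and 7.13. The WT value thus varied more between experiments than the KO value. Without KO adipose 3 the KO difference was 4.79, and with both KO libraries of experiment 2 left out, 4.51.

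Cblb and Itch did not share that split. Cblb was at 9.27 and 8.26 TPM in WT adipose and at 1.60 and 7.96 TPM in KO adipose, against 11.4 and 13.4 TPM in WT spleen and 8.93 and 12.5 TPM in KO spleen. Its tissue difference was small and pointed down, -0.45 (SE 0.64, limma adjusted p = 0.779) in WT and -1.26 (SE 0.64, limma adjusted p = 0.474) in KO. The KO value rests largely on KO adipose 2, the library with the lowest Cblb level, and was -0.37 without it. Itch was at 26.9 and 22 TPM in WT adipose, 11.9 and 13.4 TPM in KO adipose, 7.55 and 15.4 TPM in WT spleen and 6.90 and 16.8 TPM in KO spleen. Its tissue difference was 1.10 (SE 0.55, limma adjusted p = 0.431) in WT. In KO it was 0.20 (SE 0.55, limma adjusted p = 0.914), or -0.18 with quantile normalization, and the adipose values lay between the 2 spleen values. Over all tested genes the median tissue difference was 0.32 in WT and 0.16 in KO, which quantile normalization moved to -0.0033 and -0.11. None of these 4 differences of Cblb and Itch passed the test, in which 0.164% of the tested genes were called in WT and 1.08% in KO (22 and 144 genes, or 78 and 236 with the replicate number as a block). At an unadjusted p under 0.05 the test named 0 of the 4.

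The make-up of the 3 ligases by transcript therefore differed between the tissues. Rnf128 made up 74.5% and 92.9% of their summed TPM in WT adipose and 88.4% and 75.7% in KO adipose. In spleen its share was 6.66% and 5.99% in WT and 18.9% and 6.28% in KO. Cblb, which held between 1.39% and 9.04% in the adipose libraries, held between 39.9% and 56.2% in the spleen libraries. The share of Itch ran from 5.17% to 18.9% in adipose tissue and from 35.3% to 53.9% in spleen. The summed TPM of the 3 genes was 88.1 to 426 in adipose tissue and 19.5 to 31.3 in spleen, so the shift in shares followed the level of Rnf128, by which the genes were chosen.

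**Figure D2:**
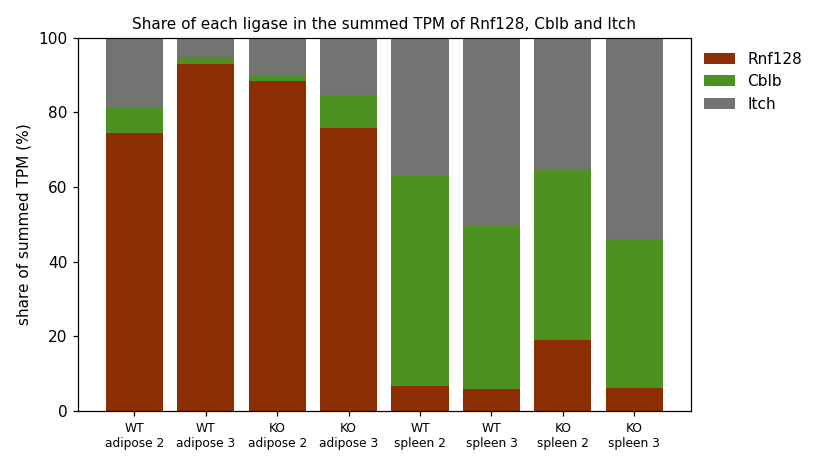
Stacked bars of the share of Rnf128, Cblb and Itch in their summed TPM (y axis, percent) in each of the 8 libraries (x axis). Rnf128 holds at least 74.5% in each adipose library and at most 18.9% in each spleen library.

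Other ligases and regulators tied to T cell unresponsiveness were read from a list of 24 further genes, of which 23 were tested. In WT, 16 of the 23 were higher in adipose tissue and 7 lower (median log2 difference 0.31, against 0.32 over all tested genes), with 0 past the limma test in either direction and 4 at an unadjusted p under 0.05. In KO, 12 were higher and 11 lower (median 0.059, against 0.16), again with 0 past the test and 5 at an unadjusted p under 0.05. The smallest p-values in both genotypes belonged to 2 genes that were lower in adipose tissue. Izumo1r, which encodes the folate receptor 4 found on Tregs and anergic cells, was at 148 and 38.8 TPM in WT adipose against 737 and 778 TPM in WT spleen (-3.30, SE 0.65, limma adjusted p = 0.111). It was at 170 and 63.4 TPM in KO adipose against 895 and 725 TPM in KO spleen (-2.94, SE 0.65, limma adjusted p = 0.092). Dtx1, a ligase gene named Deltex1, was at 2.64 and 0.117 TPM against 14.2 and 27.4 TPM in WT (-3.37, SE 0.72, limma adjusted p = 0.139). Both genes thus lay on the side opposite to Rnf128 in every library. Ndfip1, whose product activates Itch, was at 578 to 1290 TPM in all 8 libraries. Among membrane RING ligases related to Rnf128, 6 of 10 further genes were tested and 0 passed limma in any contrast, with 2 (Rnf13 and Rnf130) at an unadjusted p under 0.05 in the tissue comparison of each genotype. Rnf13 was at 32.4 to 40.6 TPM in adipose tissue and at 10.4 to 18.4 TPM in spleen, a difference of 1.07 (SE 0.40, limma adjusted p = 0.33) in WT and 1.33 (SE 0.40, limma adjusted p = 0.216) in KO.

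RefSeq gives a promoter window (250 bases before to 50 after a transcript start, GRCm38.p6, a later build than the mm9 of the deposited values) for 6 of the 7 genes. Windows are shown for genes whose level differed most between the tissues, starting with Rnf128. The patterns searched on both strands were the E-box CANNTG and its form CAGNTG (bound by E proteins, which Id2 inhibits), AP-1 TGANTCA, the antioxidant element TGACNNNGC and an NF-κB form (GGG, 5 bases of any kind, CC). CAGNTG is a part of CANNTG. Of 32851 RefSeq windows, 72.3% held CANNTG, 51.4% CAGNTG, 7.81% TGANTCA, 12.4% TGACNNNGC and 50.8% the NF-κB form. In the sequences capitals mark matches to the last 4 patterns, and positions count from +1 at the transcript start. The Rnf128 window (chrX:139610370-139610669, plus strand) holds a CAGNTG match at -199 and an NF-κB match at -136.
Rnf128: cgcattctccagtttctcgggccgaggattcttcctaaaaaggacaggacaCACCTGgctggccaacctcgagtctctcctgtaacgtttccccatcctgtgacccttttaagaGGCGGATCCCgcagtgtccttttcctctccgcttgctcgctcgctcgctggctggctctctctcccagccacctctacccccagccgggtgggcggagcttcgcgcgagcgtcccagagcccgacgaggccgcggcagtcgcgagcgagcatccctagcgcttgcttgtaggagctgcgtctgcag

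Tmem176a and Tmem176b were the most highly expressed of the 7 genes in adipose tissue. Tmem176a was at 719 and 1144 TPM in WT adipose, 148 and 485 TPM in KO adipose, 57.1 and 43 TPM in WT spleen and 14.1 and 32.1 TPM in KO spleen. Tmem176b was at 658 and 1171 TPM, 185 and 492 TPM, 31.2 and 33.6 TPM, and 15.6 and 22.1 TPM in the same order. For both genes the 4 groups did not overlap, and their order was WT adipose, KO adipose, WT spleen, KO spleen. The share of tested genes with adipose above spleen in both genotypes was the 14.1% given for Rnf128, and 3.07% had KO below WT in both tissues. The share with all 4 groups apart in this order was not counted. In WT adipose 3 both genes stood within the top 0.964% of the tested genes, and in KO spleen 2 Tmem176a stood at 32.4% from the top.

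For Tmem176a, which was not itself picked by its level, a test of the tissue difference was run. It was added as the paralog of Tmem176b, which was picked by this same difference, and the profiles of the genes lay close together. The p-values of Tmem176a are therefore not independent of that choice and give no separate support for a tissue difference. The difference was 4.17 (SE 0.61) in WT, just short of the threshold (limma adjusted p = 0.0506, and 0.0352 with the replicate number as a block). In KO Tmem176a rose in adipose tissue by 3.59 (SE 0.61, limma adjusted p = 0.0399), where 0.927% of the tested genes were called as higher. Without both KO libraries of experiment 2, in which Foxp3 was low, the KO difference was 3.88 (adjusted p = 0.0647). The KO call was lost without any 1 library other than KO adipose 2 (adjusted p = 0.0618 to 0.357). Over 19 alternatives the WT difference kept between 3.83 and 4.50 (adjusted p = 0.00691 to 0.451, 3 past the threshold) and the KO difference between 2.73 and 4.44 (adjusted p = 0.0135 to 0.357, 5 past the threshold). Tmem176b, which was picked, differed by 4.72 (SE 0.50) in WT and 3.95 (SE 0.50) in KO. The mean of Tmem176b in adipose tissue was 28.2 times that in spleen in WT and 17.9 times in KO, and that of Tmem176a 18.6 and 13.7 times.

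The profiles of the 2 paralogs lay close together. Over the 8 libraries, once centred, they were at a root mean square distance of 0.36 log2 units, and each was the nearest of 9268 candidate genes to the other. The ratio of Tmem176b to Tmem176a was 0.915 and 1.02 in WT adipose and 1.25 and 1.01 in KO adipose. It was 0.547 and 0.781 in WT spleen and 1.11 and 0.69 in KO spleen. The genes were thus at nearly equal TPM in adipose tissue, while in spleen Tmem176a was the higher in 3 of 4 libraries. The gene next in likeness to both was Cysltr1, a receptor for cysteinyl leukotrienes, at 7.19 to 54.5 TPM in adipose tissue and 0.112 to 1.51 TPM in spleen (distance 0.46 to either). That place holds for a pseudocount of 1, since most of the nearest genes of Tmem176a and Tmem176b changed with a pseudocount of 5. In GENCODE release M21 the genes share 81 exonic bases on opposite strands, 2.13% of those of Tmem176a and 3.42% of those of Tmem176b. The sources used here do not say whether reads were counted by strand, so reads from these bases cannot be told apart. Of the other genes, Ephx1 shares 72 exonic bases with the predicted gene Gm36961 and AA467197 shares 79 with Mir147.

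**Figure D3:**
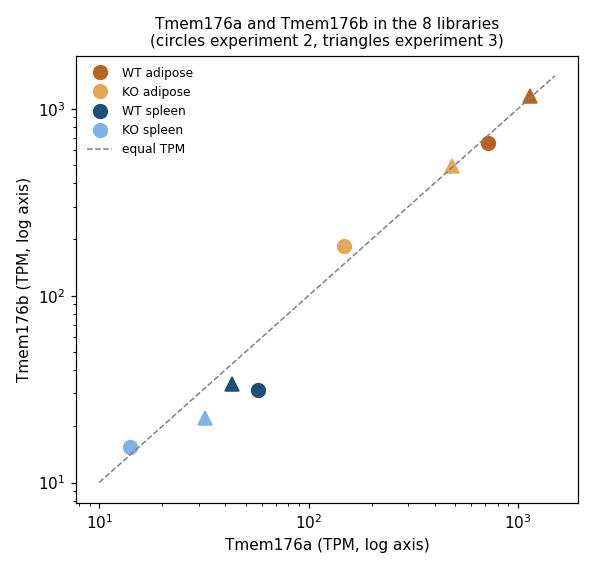
Tmem176b against Tmem176a in TPM on log axes, 1 point per library, with a dashed line at equal TPM. The adipose libraries lie near the line between 148 and 1171 TPM, and 3 of the 4 spleen libraries lie below it.

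The starts of the genes lie back to back. RefSeq gives 2 windows for Tmem176a and 3 for Tmem176b, with the genes transcribed away from each other, and the closest pair of starts is 109 bases apart. Those 2 windows share 208 bases, so the window of Tmem176a shown here (chr6:48841233-48841532, plus strand) also holds most of the region before that Tmem176b start. It has CAGNTG matches at -230 and -58 and an NF-κB match at -86.
Tmem176a: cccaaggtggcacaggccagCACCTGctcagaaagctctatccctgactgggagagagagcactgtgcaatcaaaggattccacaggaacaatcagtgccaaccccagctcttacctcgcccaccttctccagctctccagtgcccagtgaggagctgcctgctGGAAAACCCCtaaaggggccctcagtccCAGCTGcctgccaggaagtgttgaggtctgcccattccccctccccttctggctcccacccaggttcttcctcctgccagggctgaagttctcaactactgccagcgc

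Because the Tmem176 genes are known from antigen-presenting cells, marker sums were set beside them. The macrophage and monocyte list summed to 9.54 and 21.1 TPM in WT adipose, where the Tmem176 pair summed to 1376 and 2316 TPM. In KO adipose 3 that list reached 11277 TPM and the pair 977 TPM, and in KO adipose 2 they were at 17.1 and 333 TPM. In WT spleen 2 the list stood at 616 TPM and the pair at 88.3 TPM. The dendritic cell list (11 genes) summed to 273 and 84 TPM in WT adipose, to 90.2 TPM in KO adipose 2 and to 475 to 2301 TPM in spleen. It was highest in KO adipose 3, at 6503 TPM with 10 of its 11 genes above 0. Itgax, the list's gene at 0 in that library, was listed at 0 in all 4 adipose libraries and reached at most 0.426 TPM in spleen. In WT both sums were lower in the adipose libraries, in which the Tmem176 pair was higher. By gene, 11 of 12 tested macrophage and monocyte genes were lower there and 1 higher. Of 8 tested dendritic cell genes, 5 were lower and 3 (Xcr1, Clec9a and Cd209a) higher, with Xcr1 at 2.48 (SE 0.69, limma adjusted p = 0.237). The lower genes were H2-Aa (-3.86), H2-Ab1 (-4.10), H2-Eb1 (-3.90), Cd74 (-2.94) and, by little, Zbtb46 (-0.24). The lower dendritic cell sum thus does not stand for each gene of the list. Which cells the transcripts of the pair came from was not tested. The part of other cells in the KO adipose 3 values was not tested. Without that library the KO tissue difference was 2.73 for Tmem176a (limma adjusted p = 0.135) and 3.25 for Tmem176b.

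**Figure D4:**
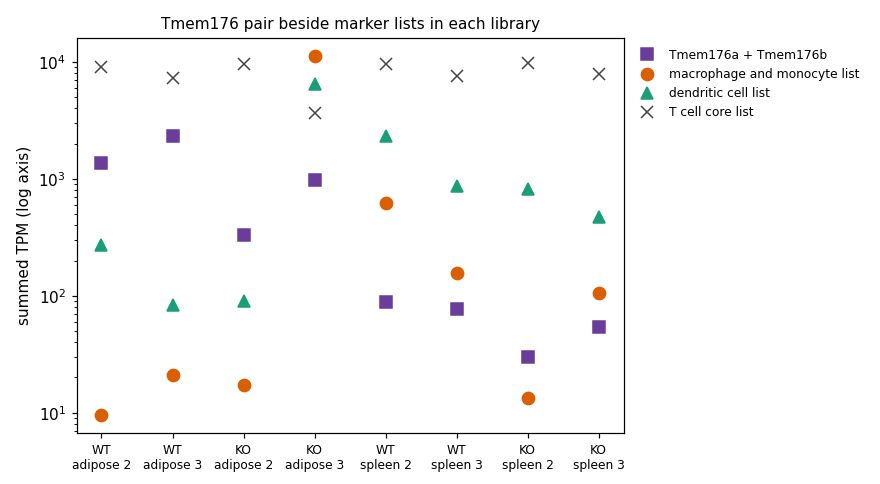
Summed TPM (log axis) of the Tmem176 pair and of the macrophage and monocyte, dendritic cell and T cell core lists in each library. In the WT adipose libraries the pair is at 1376 and 2316 TPM with the macrophage and monocyte list at 9.54 and 21.1 TPM, and in KO adipose 3 that list is at 11277 TPM.

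The MS4A relatives did not follow the pair. Of 15 further family members 9 were tested, and in WT all 9 were lower in adipose tissue (median -0.64, against 0.32 over all tested genes) with 0 past the limma test and 0 at an unadjusted p under 0.05. Ms4a4b was at 1015 and 199 TPM in WT adipose against 997 and 598 TPM in WT spleen (-0.78, SE 0.88, limma adjusted p = 0.719). In KO, 3 were higher and 6 lower in adipose tissue, with 0 past the test and 1 (Ms4a1) at an unadjusted p under 0.05. Ms4a7, known from macrophages, was at 37.6 TPM in KO adipose 3 and listed at 0 in the other 3 adipose libraries.

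Ephx1 was the one gene of the 7 with a large difference in the other direction. It was at 43.1 and 31.8 TPM in WT adipose and at 77.2 and 74.5 TPM in KO adipose, against 230.4 and 177 TPM in WT spleen and 177 and 194 TPM in KO spleen. The mean in WT spleen was 5.43 times that in WT adipose (204 ± 38 TPM against 37.5 ± 8 TPM, SD, n = 2), and in KO 2.45 times (186 ± 11.9 TPM against 75.8 ± 1.9 TPM, SD, n = 2). The tissue differences were -2.41 (SE 0.31) in WT and -1.28 (SE 0.31) in KO. Within experiments they were -2.39 and -2.44 in WT and -1.19 and -1.37 in KO, a narrow spread in both genotypes. Both adipose groups were below both spleen groups, as for 6.38% of the tested genes in both genotypes. The smaller difference in KO goes with the level in adipose tissue, since the spleen values of the genotypes overlapped. The nearest profile was that of Cd86, a costimulatory ligand gene, at 6.09 to 14.6 TPM in adipose tissue and 20.9 to 35.7 TPM in spleen (distance 0.33). The B cell list (6 genes) was also higher in spleen, at 82.4 to 434 TPM, than in adipose tissue, at 12.6 to 56.1 TPM. Its part in the level of Ephx1 was not tested.

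The shown window of Ephx1 (chr1:181017520-181017819, minus strand) holds CAGNTG matches at -242 and 33 and an NF-κB match at -16, and no antioxidant element of the letters searched.
Ephx1: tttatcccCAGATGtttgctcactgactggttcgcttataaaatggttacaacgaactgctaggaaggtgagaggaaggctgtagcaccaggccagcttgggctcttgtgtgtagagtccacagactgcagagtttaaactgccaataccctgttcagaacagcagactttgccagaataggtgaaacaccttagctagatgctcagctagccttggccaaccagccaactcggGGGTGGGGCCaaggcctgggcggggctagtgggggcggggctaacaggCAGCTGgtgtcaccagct

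Other epoxide hydrolases were low: Ephx2 reached at most 5.08 TPM and Ephx4 at most 9.87 TPM in any library. Lta4h, a hydrolase of leukotriene A4, was at 340 and 310 TPM in WT adipose against 196 and 142 TPM in WT spleen (0.96, SE 0.37, limma adjusted p = 0.344). In the list of epoxide hydrolases and xenobiotic or antioxidant enzymes, 21 of 25 further genes were tested. In WT, 14 were higher and 7 lower in adipose tissue (median 0.69, against 0.32), with 0 past the limma test and 4 at an unadjusted p under 0.05. In KO, 16 were higher and 5 lower (median 0.51, against 0.16), of which 1 passed. That gene was Nfe2l2, which encodes the antioxidant regulator Nrf2 and rose to 64.7 and 71.9 TPM in KO adipose from 10.9 and 19.8 TPM in KO spleen (2.14, SE 0.39, limma adjusted p = 0.0485). The call was lost without any 1 library (adjusted p = 0.0578 to 0.296). Mgst2, a membrane glutathione transferase gene, resembled Ephx1 in direction, at 21.4 to 42.9 TPM in WT adipose against 67.2 and 78.9 TPM in WT spleen (-1.23, SE 0.42, limma adjusted p = 0.308).

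AA467197 was at 138 and 23.7 TPM in WT adipose and at 10.7 and 10.2 TPM in KO adipose. In WT spleen and KO spleen 2 it was listed at 0, and in KO spleen 3 it was at 0.0492 TPM. No fold is given against spleen. None of the other 6 genes was at 0 in any library. The WT adipose values differed widely between experiments, at 80.9 ± 80.9 TPM (SD, n = 2), whereas the KO adipose values were close, at 10.5 ± 0.385 TPM (SD, n = 2). In WT adipose 2 AA467197 stood within the top 8.84% of the tested genes, and in WT adipose 3 within the top 36.1%.

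Ndufa4, the complex IV subunit gene related to AA467197, was at 832 to 1151 TPM in adipose tissue and 1146 to 2178 TPM in spleen. AA467197 reached 16.6% of the Ndufa4 level in WT adipose 2, 2.08% in WT adipose 3, and 0.932% and 0.909% in KO adipose. In the list of Ndufa4 relatives and complex IV subunits, 15 of 17 further genes were tested. Of these 3 were higher and 12 lower in adipose tissue in WT (median -0.28, against 0.32 over all tested genes) and likewise in KO (median -0.33, against 0.16), with 0 past the limma test, and with 0 in WT and 1 in KO at an unadjusted p under 0.05. Ndufa4 itself differed by -0.44 (SE 0.40, limma adjusted p = 0.65) in WT. Mir147, whose hairpin lies inside AA467197 in RefSeq, was listed at 0 in all 8 libraries. The mature microRNA was not measured here. The nearest profile was that of Qpct, a glutaminyl cyclase gene, at a distance of 0.91, and was less close than for the other genes.

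The shown window of AA467197 (chr2:122637637-122637936, plus strand) holds an AP-1 match at -73, which 7.81% of windows have, a CAGNTG match at -201 and an NF-κB match at -24. A further CANNTG match at -82 is not in capitals.
AA467197: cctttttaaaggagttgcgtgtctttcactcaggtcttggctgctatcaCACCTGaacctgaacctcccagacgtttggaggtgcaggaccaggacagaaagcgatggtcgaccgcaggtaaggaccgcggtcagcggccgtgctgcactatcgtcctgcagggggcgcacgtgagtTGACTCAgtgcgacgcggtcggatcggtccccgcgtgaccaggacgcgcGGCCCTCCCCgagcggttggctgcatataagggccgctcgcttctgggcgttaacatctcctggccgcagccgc

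The comparison of KO with WT was not used to choose the genes, but 4 of them were picked on differences that involve the same WT libraries. Their directions and p-values in this comparison are therefore not independent of that choice. Tmem176a, whose profile lay close to that of Tmem176b, shares this limit. Over all tested genes the median difference of KO against WT was -0.27 in adipose tissue and -0.12 in spleen, which quantile normalization moved to -0.089 and 0.0024. In adipose tissue 0 of the 7 genes passed the test (limma called 0.284% of the tested genes, 0.277% as higher and 0.00748% as lower in KO, and 932 genes had an unadjusted p under 0.05, among them Tmem176a, Tmem176b, Ephx1 and AA467197). Both KO libraries were below both WT libraries for 6 of the 7, as for 27.5% of the tested genes. For the remaining gene, Ephx1, both were above, as for 7.66%.

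In adipose tissue AA467197 had the largest difference, -2.36 (SE 0.79, limma adjusted p = 0.537), with -3.57 in experiment 2 and -1.14 in experiment 3. Tmem176a differed by -1.76 (SE 0.61, limma adjusted p = 0.564) and Tmem176b by -1.54 (SE 0.50, limma adjusted p = 0.522). Their means in KO were 0.34 and 0.37 of those in WT. The pair was lower in KO in both experiments, with -2.28 and -1.24 for Tmem176a and -1.82 and -1.25 for Tmem176b. Ephx1 differed by 1.01 (SE 0.31, limma adjusted p = 0.467), with 0.83 and 1.2 in the experiments, and its KO mean was 2.02 times the WT mean. Rnf128 differed by -1.30 (SE 0.63, limma adjusted p = 0.74), but by -0.05 in experiment 2 and -2.55 in experiment 3, so the value rests on the high level of WT adipose 3. Without that library it was -0.35. Itch differed by -0.90 (SE 0.55, limma adjusted p = 0.752) and Cblb by -1.01 (SE 0.64, limma adjusted p = 0.76), and the latter was -0.12 without KO adipose 2.

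Among markers in these adipose libraries, the fibroblast and mesothelium list summed to 747 and 3741 TPM in KO, while WT had 0.328 and 4.8 TPM. Of its 8 tested genes, 4 (Upk3b, Dcn, Igfbp6 and Msln) were among the 37 genes that limma called higher in KO adipose than in WT adipose. Between the tissues in KO 6 of the 8 were called higher in adipose tissue, and 1 (Igfbp6) for the interaction. The erythroid list (5 genes) summed to 24599 and 41287 TPM in KO, while WT had 37 and 2668 TPM, and it ran from 785 to 63217 TPM in spleen. The T cell core list summed to 9494 and 3628.5 TPM in KO, while WT had 8983 and 7298 TPM. The part of these lists in the genotype differences was not tested. Without KO adipose 3 the difference was -2.61 for Tmem176a, -2.24 for Tmem176b and 1.04 for Ephx1, and without KO adipose 2 it was -0.90, -0.83 and 0.99.

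In spleen AA467197 was at or near 0 and was not compared, and 0 of the other 6 genes passed, where limma called 0% of the tested genes, with 64 at an unadjusted p under 0.05, none of the 6 among them. The Tmem176 pair was again below WT in both KO libraries, as were 13.9% of the tested genes, and 3.07% were so in both tissues. Tmem176a differed by -1.18 (SE 0.61, 95% interval -2.57 to 0.21) and Tmem176b by -0.77 (SE 0.50, 95% interval -1.92 to 0.38), each with limma adjusted p = 1. Rnf128 was above WT in both KO libraries, as were 5.93% of the tested genes, at levels of a few TPM (0.53, SE 0.63, limma adjusted p = 1). Ephx1 differed by -0.12 (95% interval -0.84 to 0.60), Cblb by -0.21 (-1.67 to 1.26) and Itch by 0.0045 (-1.25 to 1.26), and their libraries overlapped between the genotypes. These intervals are not adjusted for the number of genes.

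**Figure D5:**
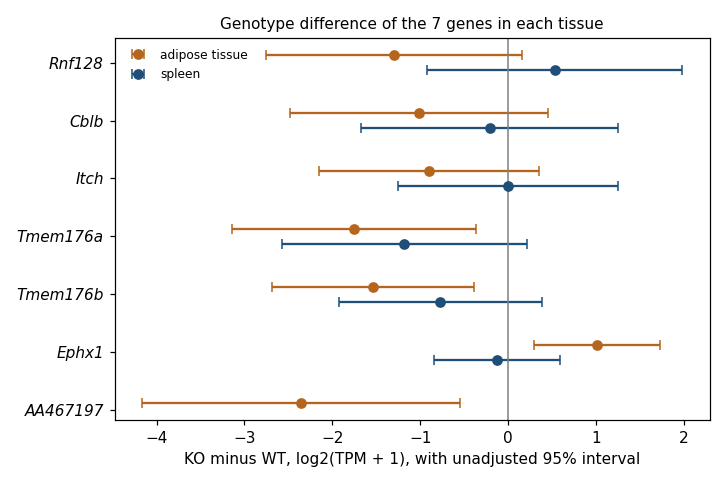
KO minus WT on the log2(TPM + 1) scale for each gene in adipose tissue and in spleen, with unadjusted 95% intervals from limma (AA467197, at or near 0 in spleen, is shown for adipose tissue only). The adipose values run from -2.36 for AA467197 to 1.01 for Ephx1, and the spleen values from -1.18 to 0.53.

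Whether the genotype difference itself differed between the tissues was tested for the 3 genes not themselves picked by level. The test of Tmem176a is not independent of the choice of Tmem176b. The difference in adipose tissue minus that in spleen was -0.58 (SE 0.86) for Tmem176a, -0.80 (SE 0.90) for Cblb and -0.90 (SE 0.77) for Itch, each with limma adjusted p = 1 after rounding, in a contrast where 0.0299% of the tested genes were called. For 3 of the picked genes it is given without a test: -1.83 for Rnf128, -0.77 for Tmem176b and 1.13 for Ephx1. For AA467197, at or near 0 in spleen, no such value is given. A value near 0 on this scale means that KO and WT differed alike in both tissues.

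Among themselves the 7 genes formed no single pattern over the 8 libraries. Rnf128 lay at a distance of 0.95 log2 units from Tmem176b, as 13th of its candidates, and at 1.25 from AA467197. The nearest genes to Rnf128 were the chemokine receptor gene Cxcr6 (distance 0.59), the immediate early gene Fosb (0.60) and Anxa1, which encodes annexin A1 (0.68). Cxcr6 was at 1063 to 3398 TPM in adipose tissue and at 31.2 to 85.9 TPM in spleen. For Cblb and Itch the nearest profiles lay at 0.15 (Ube2d2a) and 0.085 (Srsf4). Distances are over 8 libraries that share tissue and genotype groups, and a low distance says no more than that.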

How the data were processed

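RNA of 8 libraries was made with a SMARTer v4 low-input kit and a Nextera XT library kit, per the labels' protocols. The authors deposited 1 table of TPM values for 45232 genes and 8 libraries, and the submitters' processing notes name the build mm9. For the aligner, counter and annotation: not given in the sources used here. TPM values keep no read depth, so neither counting intervals nor a count test were possible, and genes with low values are less precise than the spread of 2 libraries can show.

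From the deposited TPM, log2(TPM + 1) was fitted with limma 3.58.1 in R 4.3.3 (trended prior variance, 4 residual degrees of freedom, 1 fit of all 4 groups) for 13376 genes at 1 TPM or more in at least 2 libraries. P-values were adjusted per contrast over all tested genes, with a threshold of 0.05. The fit was tested on simulated data. Figures and summaries were made with Python 3.11.15.

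The members and gene lists were chosen with earlier results of these data known. Named besides the 7 genes were list genes past the threshold or otherwise up to 4 per list and contrast with the smallest p. The 3 nearest profiles by root mean square distance, among genes with a group mean of at least 5 TPM, were named too. For the cell type marker lists mainly sums are given, and not each marker past the threshold is named. The results of 1 further gene list are not reported here. Foxp3, Itgax, Ndfip1, Ephx2 and Ephx4 were named after their values were seen. Replicate numbers name an experiment, per the file headers. Libraries with the same number deviated together from their group means in each of the 6 pairs of groups (r = 0.128 to 0.382 across genes, which are not independent), so the number was also fitted as a block. Other pseudocounts, filters, scalings, weights, subsets and leaving out each library were tried as alternatives.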

Additional observations from a re-analysis of the deposited data

Results flagged for a closer look

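KO and WT differed in opposite directions in adipose tissue and spleen for Rnf128 in every library. In adipose tissue both KO libraries (102 and 66.7 TPM) were below both WT libraries (106 and 395 TPM), whereas in spleen both KO libraries (3.69 and 1.96 TPM) were above both WT libraries (1.35 and 1.83 TPM). Of the tested genes, 27.5% were below in this way in adipose tissue and 5.93% above in spleen. The share with both was not counted. In experiments 2 and 3 the differences were -0.05 and -2.55 in adipose tissue, and 0.99 and 0.066 in spleen at levels of a few TPM. In each tissue 1 of these values was thus near 0. The adipose difference minus the spleen difference was -1.83 on the log2(TPM + 1) scale and ran from -0.88 without WT adipose 3 to -2.78 without WT adipose 2. The difference between the tissues was not tested, because Rnf128 was picked by its tissue difference in these libraries.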

How the results depend on the processing

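None of the 7 genes passed the test of KO against WT in adipose tissue under any of the 19 alternatives. Nor did any in spleen, where AA467197 was not compared. Rnf128, Tmem176a, Tmem176b, Ephx1 and AA467197 kept the direction of their tissue difference under each alternative. Of the values for single genes, 605 were labelled the same, 56 weaker, 3 stronger, 22 moved and 10 reversed. Same means the same direction and the same side of the threshold. For differences without a test, it means a change smaller than the spread within groups, and moved means a larger one. Most of the 605 had no call in the main fit. Weaker means that a call of the main fit was lost, as for Tmem176a, Nfe2l2 and Id2 in the tissue comparison of KO. For KO against WT, reversals were found only in spleen and for small values. They were those of Cblb (0.011 without both KO libraries of experiment 2) and, over the fits that left out 1 library, of Cblb (-0.43 to 0.011), Itch (-0.58 to 0.59) and Ephx1 (-0.31 to 0.070). The Itch tissue difference in KO became -0.18 with quantile normalization and -0.31 without both KO libraries of experiment 2 (-0.39 to 0.79 over single libraries). The interaction, at -0.80 for Cblb and -0.58 for Tmem176a in the main fit, ran from -1.70 to 0.087 for Cblb and from -1.43 to 0.28 for Tmem176a. Larger values than those in spleen thus changed sign too. The cause was not tested.

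The numbers of genes called depended on the settings. Of KO against WT in adipose tissue (38 genes), 13 were called with a pseudocount of 0.1, 18 with a filter at 5 TPM, 72 with quantile normalization, 0 with the 4 compared libraries alone (742 at an unadjusted p under 0.05), 162 without both KO libraries of experiment 2, and 6 (without WT adipose 3) to 343 (without KO adipose 2) over single libraries. In WT the tissue comparison (22 genes) gave 0 with no filter (1961 unadjusted), 59 with the filter at 5 TPM, 7 with no trend, 219 with array weights, 0 with 4 libraries (2543 unadjusted), 0 without both KO libraries of experiment 2 (2549 unadjusted) and 0 (without WT spleen 2) to 39 (without WT adipose 2) over single libraries. In KO it (144 genes) gave 70 and 89 with pseudocounts of 0.1 and 5, 63 with no filter, 231 with quantile normalization, 48 with array weights, 12 with 4 libraries, 0 without both KO libraries of experiment 2 (1627 unadjusted) and 1 (without KO spleen 2) to 663 (without KO adipose 2) over single libraries. The interaction (4 genes) gave 0 with a pseudocount of 0.1, no filter, the filter at 5 TPM or without both KO libraries of experiment 2 (408, 661, 246 and 1083 unadjusted), 16 with no trend, 10 with quantile normalization, 10 with array weights and 0 to 177 (without KO adipose 2) over single libraries. KO against WT in spleen gave 0 throughout (27 to 502 unadjusted). Fits without 1 library assume that the lone library of its group varies like the others.

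With the replicate number as a block, 43 genes were called between the genotypes in adipose tissue, 78 and 236 for the tissue comparison in WT and KO, and 0 for the interaction (661 at an unadjusted p under 0.05). Among the 7 genes the block changed 1 call, that of Tmem176a between the tissues in WT (adjusted p = 0.0352). With a pseudocount of 5 in place of 1, 1 of the 3 nearest genes was shared for Rnf128, Itch, Tmem176a, Tmem176b and Ephx1, and 0 for Cblb.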
